A study of Bos taurus with 8 samples.

Results

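CD38, a cell-surface enzyme that consumes NAD, was followed as 1 gene, with the Ensembl identifier ENSBTAG00000013569, of the 27607 genes counted in bovine blastocysts from oocytes of prepubertal and of pubertal heifers. The gene was chosen by its difference between these donor groups in the same libraries, so its levels and its group difference are given as a description. Tests over all genes included CD38, and nothing is read from its own test results. CD38 splits NAD into nicotinamide and ADP-ribose, and also forms cyclic ADP-ribose, a messenger that releases calcium from stores inside the cell. It is best known as a surface marker of lymphocytes and plasma cells, but it is present in many tissues outside the blood. In RefSeq's bovine gene table for the ARS-UCD2.0 assembly, its neighbours on the chromosome were BST1, which encodes the related NAD-cleaving enzyme, and FGFBP1. No BST1 value can be given, because the counted identifiers are not paired with that symbol in the sources used here.

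Total RNA of 8 libraries was sequenced, each from a pool of several in vitro produced blastocysts collected on day 7 of culture. The donors were Polish Holstein-Friesian heifers, and oocytes were collected by ovum pick-up, matured in vitro and fertilized with semen of a single bull. Age and ovarian ultrasound defined the donor groups. Pubertal donors were past 15 months and showed a corpus luteum, a dominant follicle or both, whereas prepubertal donors were under 10 months and showed neither. The labels call all samples female without saying whether this refers to the embryos or to the donors. The sources disagree on 2 samples. The study's supplementary tables place samples 1, 2, 3 and 8 in the prepubertal group and samples 4, 5, 6 and 7 in the pubertal group, and this grouping was used here. The sample labels place sample 4 in the prepubertal group and sample 8 in the pubertal group, and CD38 is given under both groupings. Between 18510164 and 29549143 reads per library were counted on genes.

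CD38 was detected in every library, with 418 to 1211 reads. The level is given as CPM, the number of reads of a gene out of every 1000000 reads counted on genes in the library. CD38 averaged 35.8 CPM over the 8 libraries, against a median of 1.22 CPM over the 26030 genes with a read in any library. By mean CPM it ranked 4556, with 82.5% of those genes below it, and it was 24th of the 52 genes that the supplementary tables pair with a symbol. The rank is by reads and not per transcript length. Within single libraries CD38 ranked between 3302 in sample 3 and 6962 in sample 5, so the gene lay lower among all genes in the library with its lowest CPM.

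CD38 reached 48.8 CPM in sample 1, 43.2 CPM in sample 2, 53.8 CPM in sample 3 and 45.3 CPM in sample 8, the prepubertal libraries of the supplementary tables. In the pubertal libraries CD38 was at 34.5 CPM in sample 4, 15.3 CPM in sample 5, 21.7 CPM in sample 6 and 23.6 CPM in sample 7. All prepubertal libraries were therefore higher than all pubertal libraries, with sample 4 the nearest to the other group. Each library's count has an exact Poisson 95% interval, which covers counting error only, and for CD38 it ran from 13.9 to 16.9 CPM in sample 5 and from 50.6 to 57.1 CPM in sample 3. From the highest to the lowest CD38 level the order was samples 3, 1, 8, 2, 4, 7, 6 and 5. Neighbours in this order had overlapping counting intervals between samples 3 and 1, 1 and 8, 8 and 2, and 7 and 6. They did not overlap between samples 2 and 4, 4 and 7, or 6 and 5.

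**Figure D1:**
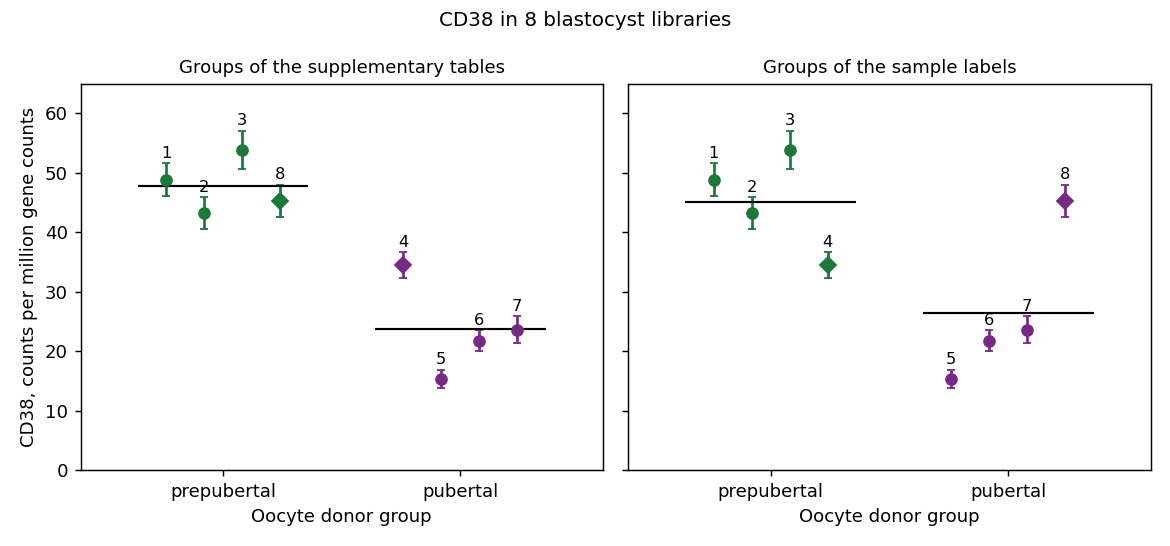
CD38 in CPM (vertical axis) in each of the 8 libraries, numbered by sample, with exact Poisson 95% intervals of the count as bars and group means as horizontal lines; diamonds mark samples 4 and 8. With the supplementary tables' groups (left) the lowest prepubertal library is at 43.2 CPM and the highest pubertal library at 34.5 CPM, and with the labels' groups (right) the groups overlap.

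Prepubertal libraries had a mean CD38 level of 47.8 CPM ± 4.64 (SD, n = 4) and pubertal libraries one of 23.8 CPM ± 7.95 (SD, n = 4), a ratio of 2.01. The difference of 24.0 CPM was larger than the spread of either group. The lowest prepubertal library was 1.25 times the highest pubertal library. In a bulk pool of embryos, fewer cells that carry CD38 RNA and less CD38 RNA per cell cannot be told apart. Of the 15513 genes that passed the low-count filter, 455 (2.93%) were like CD38 in that all pubertal libraries lay below all prepubertal libraries. The choice of the gene on this contrast favours this property, so nothing is read from it.

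Under the groups of the sample labels, CD38 averaged 45.1 CPM ± 8.29 (SD, n = 4) in prepubertal and 26.5 CPM ± 13.0 (SD, n = 4) in pubertal libraries, a ratio of 1.70. The groups then overlapped, since sample 8 at 45.3 CPM counted as pubertal and sample 4 at 34.5 CPM as prepubertal. Under these labels 374 genes (2.41%) lay lower in all pubertal libraries, and CD38 was not among them. A gene separated under the supplementary tables' groups must overlap once samples 4 and 8 are exchanged, so nothing is read from this. In the 6 samples on which both sources give the same group, CD38 averaged 48.6 CPM ± 5.30 (SD, n = 3) in prepubertal and 20.2 CPM ± 4.34 (SD, n = 3) in pubertal libraries, a ratio of 2.40. The disputed samples were not alike in their distance from these libraries. Sample 8 was at 0.93 times the mean of samples 1, 2 and 3. Sample 4 lay between the groups, at 1.70 times the mean of samples 5, 6 and 7, while the mean of samples 1, 2 and 3 was 1.41 times sample 4. These CD38 values do not assign a group to either sample.

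The fitted CD38 log2 fold change, pubertal against prepubertal, was -0.97 (SE 0.18) in edgeR, which is 1.96 times lower in the pubertal group. It was -0.75 (SE 0.26) with the labels' groups and -1.22 (SE 0.15) in the 6 undisputed samples. Over all tested genes the median log2 fold change was -0.02, and 590 genes (3.80%) had a more negative value than CD38. A gene was called when its fold change exceeded 1.2 and its Benjamini-Hochberg adjusted p was under 0.05. By this rule edgeR called 0 of 15513 genes (0%) in either direction, against 1681 (10.8%) at an unadjusted p under 0.05. With the labels' groups 1134 (7.31%) passed the unadjusted threshold. Some genes pass it by chance alone. DESeq2 called 86 of 13933 genes (0.617%) lower in the pubertal group, CD38 among them, and 42 higher. With the labels' groups DESeq2 called 26 of 14920 genes (0.174%) lower and 5 higher, and CD38 was not among them. The edgeR call of CD38 depended on the samples and the filter as well, since CD38 was called in the 6 undisputed samples, without sample 4 and without the low-count filter. Because CD38 was chosen on this contrast, nothing is read from its call.

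**Figure D2:**
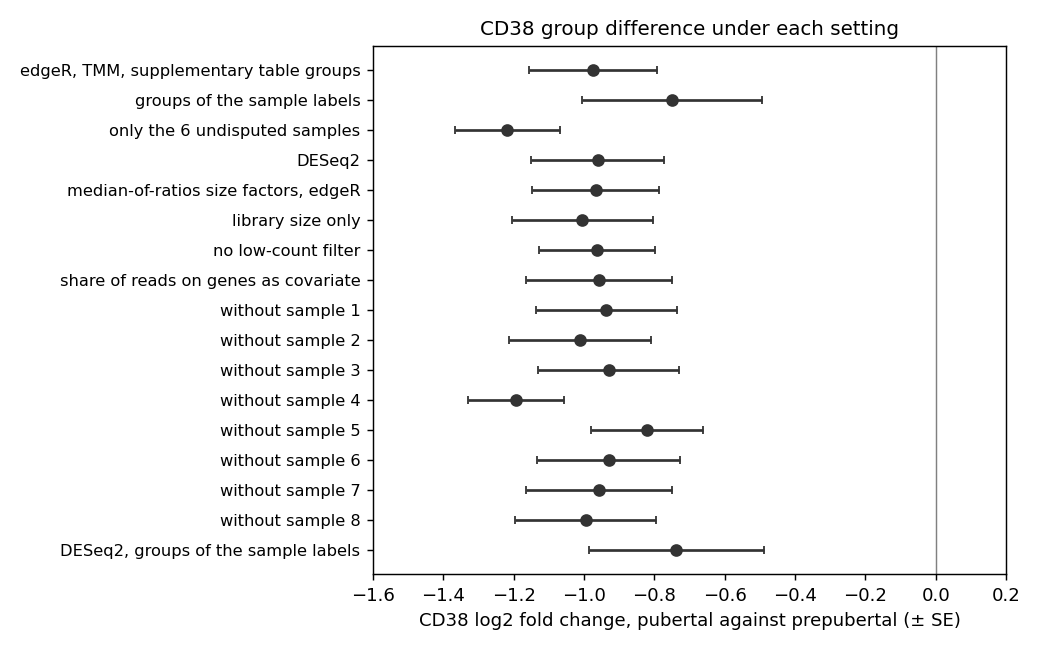
CD38 log2 fold change, pubertal against prepubertal (horizontal axis), with its standard error as bars, for each way of grouping, normalizing or leaving out a sample (vertical axis). All plotted estimates lie below 0, between -1.22 in the 6 undisputed samples and -0.74 in DESeq2 with the labels' groups.

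The CD38 level was more even among prepubertal than among pubertal libraries. Its coefficient of variation, the SD as a share of the mean, was 9.71% in the prepubertal and 33.4% in the pubertal group, where counting error alone would give 2.999% and 4.27%. Among 1310 genes with a mean CPM within 20% of that of CD38, the median coefficient of variation was 10.7% in the prepubertal and 11.8% in the pubertal group. In the prepubertal group 41.4% of these genes varied less than CD38, and in the pubertal group 96.6% did. Without sample 4, whose group is disputed, the pubertal CD38 value was 21.5%, and 89.2% of these genes varied less. It was 18.4% in prepubertal and 49.1% in pubertal libraries with the labels' groups, where 85.8% and 98.9% of these genes varied less. In the undisputed prepubertal samples 54.6% of them did, and without sample 3 the prepubertal value was 6.16%. The pubertal spread ran from sample 5 to sample 4, which differed 2.25-fold, and 3.51-fold separated the highest and the lowest of all 8 libraries.

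Samples 3 and 7 differed from the rest in the share of uniquely mapped reads that fell outside genes, 54.1% and 47.5%, against 35.8% to 41.6% in the others. This share enters the scaling of CD38, so its reads were also divided by all uniquely mapped reads. CD38 was then at 29.1, 25.03, 24.4 and 27.3 reads per 1000000 uniquely mapped reads in the prepubertal samples 1, 2, 3 and 8. On this scale it was at 21.9, 9.72, 13.4 and 12.3 in the pubertal samples 4, 5, 6 and 7. Sample 3 thus passed from the highest to the lowest CD38 level of the prepubertal group. The groups did not overlap on this scale either, with a ratio of means of 1.85, but samples 3 and 4 were only 1.11-fold apart and their counting intervals overlapped. With the share of reads on genes as a covariate in edgeR, the CD38 log2 fold change was -0.96 (SE 0.21), against -0.97 without it.

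The genes most like CD38 were found by Pearson's r of log2 CPM over the 8 libraries, which share their normalization, computed for 15512 other genes and given as a description. The highest values belonged to ENSBTAG00000040215, for which no symbol is paired (r = 0.98, Spearman's rho = 0.93), and INPP5F (r = 0.98, rho = 0.90), a phosphoinositide phosphatase. INPP5F was at 66.9, 70.8, 74.7 and 69.1 CPM in the prepubertal samples 1, 2, 3 and 8 and at 63.5, 44.7, 48.1 and 53.2 CPM in the pubertal samples 4, 5, 6 and 7. Like CD38 it was lowest in sample 5, highest in sample 3, and nearest to the prepubertal libraries in sample 4. INPP5F was picked for its r with CD38 over these same libraries, which favours such likeness, so nothing is read from it. Without samples 5 and 6, which lie farthest from the CD38 median, r with INPP5F was 0.95, again in libraries used for its choice. An r above 0.9 with CD38 was reached by 137 genes (0.883%), and an r below -0.9 by 37 (0.239%).

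The patterns most opposed to CD38 were those of ENSBTAG00000009603 (r = -0.96, rho = -0.95), also without a paired symbol, and GCSH (r = -0.96, rho = -0.90), the lipoyl-carrying protein of the glycine cleavage system. GCSH was at 54.0, 68.7, 46.8 and 46.6 CPM in the prepubertal samples 1, 2, 3 and 8 and at 78.4, 150.6, 94.6 and 97.8 CPM in the pubertal samples 4, 5, 6 and 7. The library with the least CD38, sample 5, had the most GCSH. Without samples 5 and 6, r between CD38 and GCSH was -0.92. GCSH was likewise picked by its r over these libraries, so nothing is read from either value.

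Among the 51 other genes with a paired symbol, 23 had a positive and 28 a negative r with CD38, while the median r over all tested genes was 0.17. The study selected these genes on the same contrast, so their r with CD38 also contains the group difference. As deviations from the group means, 31 of the 51 had a positive r with CD38, and 39 kept their sign. After INPP5F, the highest were GMDS (r = 0.94), which starts the synthesis of GDP-fucose, GULO (r = 0.94), of vitamin C synthesis, the steroid sulfatase STS (r = 0.94) and the prostaglandin synthase PTGS2 (r = 0.93). After GCSH, the lowest were ATP5PD (r = -0.87), of the ATP synthase stalk, the acyltransferase AGPAT5 (r = -0.85), the complex I subunit NDUFS3 (r = -0.85) and the maintenance DNA methyltransferase DNMT1 (r = -0.85). Taking deviations from the group means removes the group difference only if the disputed samples are placed in the right groups, which is not known. With the supplementary tables' groups, r was then 0.93 for INPP5F, 0.88 for PTGS2, 0.82 for GMDS, 0.80 for GULO and 0.78 for STS. The same r was -0.86 for GCSH, -0.71 for AGPAT5, -0.51 for ATP5PD, -0.49 for DNMT1 and -0.29 for NDUFS3. The order depended on the grouping: with deviations from the means of the labels' groups, r was -0.99 for GCSH, 0.96 for GMDS and INPP5F, -0.86 for NDUFS3, and nearest to 0 for AGPAT5 and DNMT1, both at -0.74.

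PTGS2 was at 695, 834, 928 and 872 CPM in the prepubertal samples 1, 2, 3 and 8 and at 673, 230.3, 386 and 594 CPM in the pubertal samples 4, 5, 6 and 7. As for CD38, its highest level was in sample 3, its lowest in sample 5, and sample 4 was the highest pubertal library. PTGS2 is among the genes with the highest r, so nothing is read from this likeness. RDH12, a retinol dehydrogenase, had an r of 0.92 with CD38, but differed from it in sample 4, where its 6.50 CPM lay within the 4.66 to 7.08 CPM of samples 5, 6 and 7.

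NAD, which CD38 consumes, is also used as an electron carrier by dehydrogenases and complex I. A paired symbol was available for 10 genes of NAD(P)-linked enzymes or complex I subunits. Their log2 fold change was negative in 5 and positive in 5, and its median was -0.09, against -0.02 over all genes tested. DESeq2 called RDH12 alone of the 10, against 128 of 13933 genes (0.919%) in either direction, while edgeR called no gene at all. The groups did not overlap for 5 of the 10, against 820 of 15513 genes (5.29%), but the study selected these genes on this contrast, so nothing is read from either count. With the labels' groups all 10 overlapped. For the 5 separated before, this must follow once the disputed samples are exchanged. No such share over all genes is given for these labels, so nothing is read from this count either. On the same side as CD38 were RDH12 (log2 fold change -1.18, SE 0.17), the retinal dehydrogenase ALDH1A3 (-1.14, SE 0.37), the mitochondrial isocitrate dehydrogenase IDH2 (-0.53, SE 0.13), GMDS (-0.48, SE 0.13) and ISYNA1 (-0.48, SE 0.14), which makes inositol phosphate. On the other side were PGD of the pentose phosphate pathway (0.54, SE 0.19), NDUFA3 (0.39, SE 0.13), NDUFA13 (0.38, SE 0.11) and NDUFS3 (0.37, SE 0.10) of complex I, and the mitochondrial aldehyde dehydrogenase ALDH2 (0.31, SE 0.09). With the labels' groups the signs were the same but the values smaller, among them -0.45 (SE 0.36) for RDH12, 0.17 (SE 0.12) for ALDH2 and 0.05 (SE 0.16) for NDUFA13, which was then within its error of 0.

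A list of enzymes that, like CD38, are anchored at the cell surface held 3 genes with a paired symbol. It left out the ion-transporting ATPase ATP12A (log2 fold change -0.75, SE 0.16), which DESeq2 called and for which the groups did not overlap. Each of the 3 had a negative log2 fold change, against 24 of all 52 paired genes. The study selected these genes on this contrast, so nothing is read from that count. The aminopeptidase ANPEP was at -1.43 (SE 0.42), the carbonic anhydrase CA4 at -2.66 (SE 0.73) and the alkaline phosphatase ALPL at -0.95 (SE 0.28), with a median of -1.43, against -0.02 over all genes tested. With the labels' groups their median was -0.80, against -0.01 over all genes tested. Nothing is read from these medians either, since the study selected the genes. edgeR called none of the 3, as of all genes tested, DESeq2 called CA4 (background 0.617%), and the groups did not overlap for ANPEP alone (background 2.93%). CA4 was at 12.2 CPM in sample 8, against 1.17 to 2.88 CPM in samples 1, 2 and 3. Its log2 fold change was -1.73 in the 6 undisputed samples, which leave out samples 4 and 8 together. In the order ANPEP, CA4 and ALPL, r with CD38 was 0.91, 0.74 and 0.83, but 0.70, 0.32 and 0.60 as deviations from the group means and 0.87, 0.89 and 0.72 as deviations from the means of the labels' groups. Without samples 5 and 6, r between CD38 and CA4 was 0.37. With the labels' groups CA4 turned to 0.92 (SE 0.96), whereas ANPEP was at -0.83 and ALPL at -0.80. ANPEP and CA4 were far less abundant in reads than CD38, at 0.440 to 3.43 CPM and 0.249 to 12.2 CPM.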

How the data were processed

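Unnormalized counts of reads on each Ensembl gene were deposited by the authors. Reads of stranded total RNA libraries had been trimmed with Flexbar, mapped with STAR to the Bos taurus UCD1.2 genome and counted with HTSeq-count. The sources used here give neither the tool versions, nor the strand setting, nor the handling of molecular identifiers. Repeated reads of the same molecule therefore cannot be told apart. Reads that fit several overlapping genes were set aside as ambiguous, but whether strand was used for this is not known. Rows of reads outside genes (35.8% to 54.1% of uniquely mapped reads), ambiguous reads (0.448% to 0.581%) and reads at several loci were left out of library sizes and tests.

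CPM was computed from gene counts alone. Fold changes came from edgeR 4.0.16 in R 4.3.3 (filterByExpr, TMM, glmQLFit, glmQLFTest, no covariate, Benjamini-Hochberg adjustment), with the SE derived from the fold change and its F value. DESeq2 1.42.0 at its defaults was an alternative. Both were tested on simulated data. For correlations, a prior count of 2 was added before taking log2 CPM. Libraries of the same group were not identical, and the chi-square of each pair was 21.5 to 53.1 times its degrees of freedom, far above counting error. This comparison covers counting error only, so it cannot show that the libraries are separate pools. They were treated as such because the study describes them so.

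CD38 and the gene lists were chosen with earlier results of these data known. The other genes named were the 2 with the highest and the 2 with the lowest r with CD38 among genes tested, the 5 highest and 5 lowest among genes with a paired symbol, PTGS2, RDH12, and the members of the lists of NAD(P)-linked and cell-surface enzymes. Beyond these, ATP12A is named only as left out of the cell-surface list. Symbols came from the study's supplementary tables, which pair 52 identifiers. The reference gene table (ARS-UCD2.0) matched 0 of the identifiers counted, so other genes of NAD metabolism and markers of trophectoderm, inner cell mass, cumulus cells and leukocytes are not analysed here. Alternatives were the labels' groups, the 6 undisputed samples, other normalizations and filters, the share of reads on genes as a covariate, and leaving out each sample.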

Additional observations from a re-analysis of the deposited data

Results flagged for a closer look

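The gap between the most extreme library and its nearest neighbour was compared with the whole range of its group. This was done for CD38, the other named genes except ATP12A, and the library measures. Of 56 such groups of 4 libraries, 6 had a gap above the 95% critical value of Dixon's test, which chance passes in about 1 in 20 groups. CD38 was not among them in either group.

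CA4 stood apart in sample 8, at 12.2 CPM, against 1.17, 2.52 and 2.88 CPM in samples 1, 2 and 3. Sample 8 is a library whose group the sources dispute. With the labels' groups, which exchange samples 4 and 8 together, the CA4 log2 fold change turned to 0.92 (SE 0.96), within its error of 0. Without both samples it was -1.73. Sample 8 also had the highest share of reads at several loci, 17.2% of mapped reads, while its CD38 level lay between those of samples 1 and 2.

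Sample 3 had fewer reads counted on genes than the other prepubertal libraries (20112044), a larger share of reads outside genes (54.1%) and reads on more genes (24203). Sample 7 had the largest share of reads outside genes in the pubertal group (47.5%). It also had the fewest reads counted on genes of all libraries (18510164) and reads on 24044 genes, the most in its group. These last values did not pass the critical value. CD38 was highest in sample 3 of all libraries when scaled to gene counts, and lowest in sample 3 of the prepubertal libraries when scaled to all uniquely mapped reads.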

How the results depend on the processing

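The CD38 log2 fold change was negative under all alternatives tried. It was -0.96 with DESeq2, without the low-count filter and with the share of reads on genes as a covariate, -0.97 with DESeq2's size factors in edgeR and -1.005 with library size only. DESeq2 with the labels' groups, an alternative chosen after seeing the data, gave -0.74. With single samples left out it ran from -1.19 without sample 4 to -0.82 without sample 5.

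The count of 0 genes called by edgeR was not stable. It was 11 in the 6 undisputed samples, 2 with DESeq2's size factors, 25 without the low-count filter and 128 with DESeq2 (31 with DESeq2 and the labels' groups), and 0 with the labels' groups, library size only or the covariate. With single samples left out it ran from 0 to 8, at 8 when sample 4 was left out, 5 for sample 1, 4 for sample 8 and 3 for sample 7. The cause was not tested.

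Per 1000000 uniquely mapped reads, the mean CD38 level was 26.5 in the prepubertal and 14.3 in the pubertal group, since the denominator is larger. With single samples left out, the mean CD38 CPM ran from 45.7 to 49.3 in prepubertal and from 20.2 to 26.6 in pubertal libraries. With the labels' groups the coefficient of variation of CD38 was 18.4% in the prepubertal and 49.1% in the pubertal group. With single samples left out, also chosen after seeing the data, it ran from 6.16% to 11.8% in prepubertal and from 21.5% (without sample 4) to 40.8% in pubertal libraries. Among the genes that passed the low-count filter, 70.6% lay below CD38, because fewer genes of low count are included.

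Of the correlations with CD38 of 23 named genes, all kept their sign with a prior count of 0.5, as Spearman's rho and without samples 5 and 6. Against the jackknife error over libraries, 7 moved as rho and 15 without samples 5 and 6, where CA4 went from 0.74 to 0.37 and NDUFA3 from -0.75 to -0.41. As deviations from the group means, 21 kept their sign and 20 of these moved, to 0.32 for CA4 (0.89 with the labels' groups) and -0.18 for NDUFA3, while r turned to 0.84 for NDUFA13 (from -0.35) and 0.37 for ALDH2 (from -0.68). With the labels' groups, added after seeing the data, neither turned (-0.42 and -0.59), and 8 of the 23 moved.

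CD38 had at least 418 reads per library. Its counting intervals treat each read as a separate molecule, which was not tested.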
